A study of Mus musculus with 8 samples.

Results

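Acinar cells of the mouse pancreas were injured in culture with cholecystokinin (CCK) and profiled by RNA sequencing without added obeticholic acid (OCA). The 4 libraries titled AP, written AP1, AP2, AP3 and AP4, were taken by their titles from the 8 libraries of the study, whose other 4 also carry OCA in the title and are not analysed here. The cells came from wild-type mice, were freed with collagenase IV, and were kept in a HEPES-buffered medium with 2% fetal bovine serum and 1 µM CCK for 6 h. The treatment text speaks of rising OCA concentrations and states 2.5 µM in the same words for all samples, the AP samples included, so the absence of OCA rests on the titles. The labels do not say whether the replicates came from separate mice or separate cultures, and the spread reported here may therefore be technical. No untreated library was analysed here, so every value is a level after CCK and none is a change caused by it.

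The acinar cell makes and stores the digestive enzymes of the gut, most of them as inactive zymogens held in secretory granules. CCK binds a receptor on the cell that raises calcium and releases the granules. At concentrations above those that drive secretion best, secretion is blocked, zymogens can be activated inside the cell, and the endoplasmic reticulum (ER) and the inflammatory NF-kB pathway are engaged, which is why such cells serve as a model of acute pancreatitis. Isolated acini also carry ducts, islets, vessel cells and leukocytes in varying amounts, so marker genes of these cells were described next to those of the acinar cell.

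Levels are given as CPM, the deposited value scaled so that each library sums to 1000000, and 4 values in a row are in the order AP1, AP2, AP3, AP4. The deposited libraries had been brought to a shared distribution, so a CPM value is a position in that distribution and not a share of reads. Total read numbers are unknown. Low values formed steps like whole counts, and a count of 3 lay at 0.206, 0.225, 0.313 and 0.219 CPM. That is the level that a listing of 0 still allows, for counting error only. Between 15394 and 16640 genes were above 0 in a library. Genes were compared with each other only as CPM per kb of merged exon length, over 19145 genes.

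AP3 stood apart from the other 3 libraries and was kept, with results also given without it. Across the 10798 genes whose mean reached 1 CPM, log2(CPM + 1) correlated at Pearson r between 0.977 and 0.980 among AP1, AP2 and AP4, and between 0.948 and 0.954 when AP3 was in the pair. These are correlations across genes, which are not independent replicates. In AP3, 272 genes (2.52% of those 10798) were more than 2-fold below the lowest of the other 3 libraries, against 8 (0.0741%), 18 (0.167%) and 10 (0.0926%) genes for AP1, AP2 and AP4. More than 2-fold above the other 3 were 17 genes in AP3 (0.157%), 9 in AP1 (0.0833%), 6 in AP2 (0.0556%) and 8 in AP4 (0.0741%).

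GC content and gene length moved with the AP3 deviation. Each library's deviation was taken from the mean of the other libraries, so AP3 is part of the reference for AP1, AP2 and AP4. The Spearman correlation across genes between this deviation and GC content was 0.575 in AP3 and -0.385, -0.335 and -0.189 in AP1, AP2 and AP4. With merged exon length it was -0.345 in AP3 and 0.231, 0.0698 and 0.261 in the others. The 272 genes low in AP3 had a median GC content of 42.1% and a median length of 8020 bases, against 50.2% and 4419 bases over all 10798 genes. With each library's trend on GC content and length taken out, 66 genes were more than 2-fold below the other libraries in AP3 and 13 above. The 289 genes apart in AP3 in both directions became 58 with a pseudocount of 5 in place of 1, and 434 against AP1 and AP2 alone. With the trend taken out AP3 was the highest library in 3312 of the 10798 genes and the lowest in 3237. The part of library preparation in these differences was not tested.

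**Figure D1:**
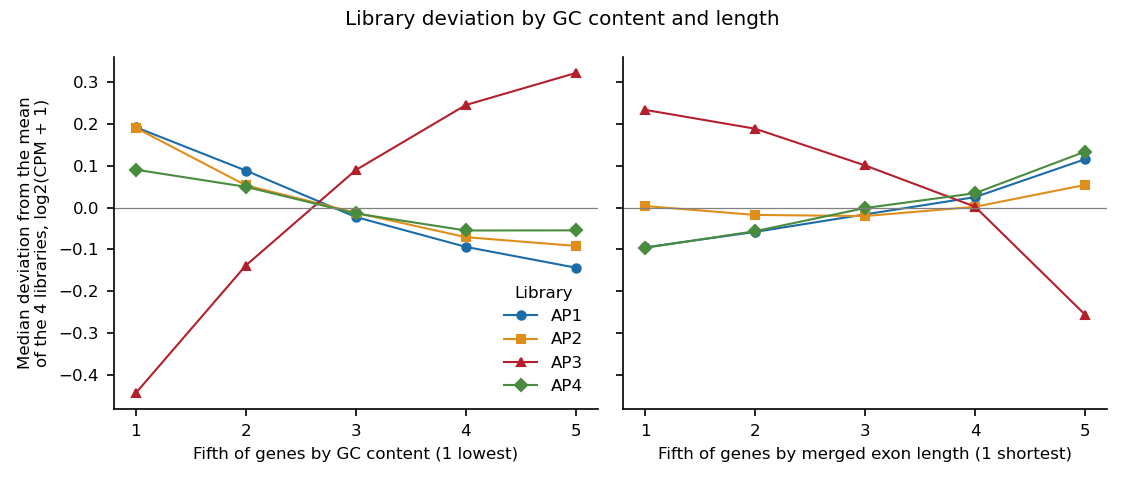
Median deviation of each library from the mean of the other 3 libraries, in log2(CPM + 1). Genes were split into 5 equal bins by GC content (left) and by merged exon length (right). The axis label names the mean of the 4 libraries, but the mean of the other 3 was used. AP3 runs from -0.44 in the bin lowest in GC to 0.32 in the bin highest in GC, while the other 3 libraries run the other way. Each of those 3 is set against a mean that includes AP3, which by itself pulls them the opposite way.

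Digestive enzymes and other granule proteins held most of the summed values in the 4 libraries. The 56 listed genes of this kind summed to 71.5% ± 0.169 (SD, n = 4) of the values, and they took the 20 highest ranks per kb and 37 of the 50 highest. The top ranks have fixed values in the shared distribution, which holds this SD small. It is therefore no measure of how well the replicates match. Chymotrypsinogens and elastases held 29.2% ± 0.691, lipases with colipase 14.0% ± 0.212, trypsinogens 12.7% ± 0.556, and carboxypeptidases 7.08% ± 0.238 (SD, n = 4). Other granule proteins held 5.02% ± 0.147, amylases 2.36% ± 0.468, and nucleases with kallikreins 1.19% ± 0.0755 (SD, n = 4). The 20 most abundant genes of any kind held 65.5% of the sum and the top 200 held 82.0%. Of 54427 listed genes, 34828 were at 0 in all 4 libraries, 56 reached 1000 CPM, 401 lay between 100 and 1000, 4187 between 10 and 100, and 6154 between 1 and 10. The plot of levels per kb by library shows the leading enzymes above the most abundant stress, keratin and hormone genes.

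**Figure D2:**
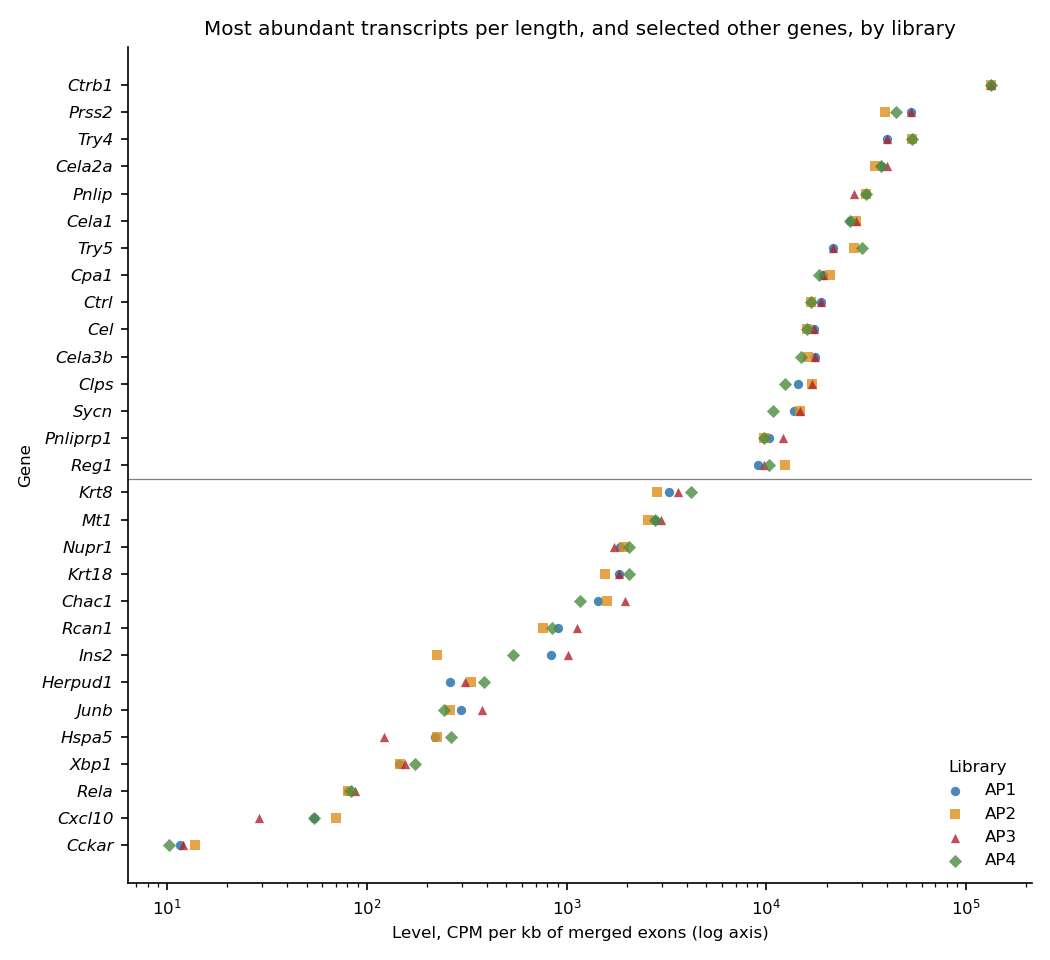
Level of each gene in CPM per kb of merged exons (log axis), 1 point per library. Above the line stand the 15 genes named by rank, from Ctrb1 at a mean of 132714 to Reg1 at 10324. Below it stand genes selected by role, from Krt8 at 3462 to Cckar at 11.9.

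Sequences before the start sites of digestive genes are shown because the transcription factor complex PTF1, built on Ptf1a and Rbpjl, is known to bind an E-box of the form CACCTG in enzyme promoters. In RefSeq (GRCm38.p6), the window from 250 bases before to 50 bases after the start was searched on both strands. CACCTG was present in 27 of the 44 digestive genes of at least 1 CPM with a listed promoter (61.4%), and in 22.6% of all 27025 genes with one. TTTCCC, which the same complex reads, was present in 16 of the 44 (36.4%) and in 27.9% of all genes. Duplicated trypsinogen and kallikrein genes share promoter sequence and are not independent. The 4 windows below carry the E-box in capitals, as CACCTG or as its reverse complement CAGGTG, and are written in the direction of the gene.
Prss2, chr6:41521587-41521632: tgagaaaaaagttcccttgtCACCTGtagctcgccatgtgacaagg
Cela1, chr15:100688004-100688049: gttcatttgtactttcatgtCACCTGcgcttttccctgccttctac
Cela3b, chr4:137430541-137430586: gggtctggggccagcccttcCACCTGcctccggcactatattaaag
Klk1, chr7:44225253-44225298: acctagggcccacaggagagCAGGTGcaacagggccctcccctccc

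These matches are descriptions of letters and not of bound sites. The E-box ends 163 bases before the start of Prss2, 103 before Cela1, 40 before Cela3b and 81 before Klk1.

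Among the proteases, Ctrb1, a chymotrypsinogen on mouse chromosome 8 (mm10, 111686519 to 111691010), held rank 1 in every library. It stood at 116522, 116526, 116521 and 116522 CPM, or 132714 ± 2.79 CPM per kb (SD, n = 4). That near identity follows from the shared distribution, in which the first rank has a fixed value. The elastases Cela2a and Cela1 were next in their list at 64534, 60144, 69034 and 64534 CPM and at 60142, 64536, 64533 and 60141 CPM. Their libraries exchanged neighbouring ranks and differed by 1.15 and 1.07 times between highest and lowest. Ctrc, a chymotrypsin that degrades trypsinogen, ranked 177 at 100 CPM per kb, far under Ctrb1. Cela3a stood at 6.79, 6.47, 6.27 and 2.00 CPM, so that AP4 was the low library there.

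Trypsinogens varied more between libraries than the chymotrypsinogens and elastases did in their listed values. The median SD was 0.249 on the log2(CPM + 1) scale against 0.0887. Their median levels were 1365 and 27536 CPM, and the top ranks have fixed values in the shared distribution. The contrast may therefore go with rank. Prss2 stood at 42866, 32048, 42866 and 36361 CPM and Try4 at 32047, 42868, 32046 and 42866 CPM. The 2 genes thus changed places, Prss2 ahead in AP1 and AP3 and Try4 ahead in AP2 and AP4, at 47282 and 46762 CPM per kb on average. Prss1 stood at 18.7, 34.2, 45.4 and 97.5 CPM and was highest in AP4. Gm5771 was lowest in AP1, at 122 CPM against 264 to 588 CPM in the other libraries. These genes are near-identical copies, and the counting of reads that fit several of them is not given in the sources used here, so how the reads are divided between copies is uncertain. Spink1, the trypsin inhibitor of the granule, was even across libraries at 642, 677, 774 and 726 CPM and ranked 45 at 967 CPM per kb.

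Lipases and carboxypeptidases kept their ranks closely. Pnlip, pancreatic lipase, stood at 69034, 69037, 60141 and 69034 CPM. Only AP3 was off the common value. Clps, the colipase that lets lipase work in bile, had 15140 ± 2179 CPM per kb (SD, n = 4) and stood between Cela3b and Sycn in the order. Cel, the bile salt-activated lipase, had 16575 ± 817 CPM per kb, and its neighbour Cela3b had 16538 ± 1317, a difference well inside either SD. Cpa1, the most abundant carboxypeptidase, held rank 8 per kb in all 4 libraries, and Cpb1 held rank 17 in all 4.

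Amylases were the digestive group with the largest relative spread of its share among the 7, 1.64 times between the highest and the lowest library. The group held 2.36%, 2.54%, 1.71% and 2.81% of the sum. AP3 was the lowest library in 6 of the 7 genes, where AP3 was lowest in 30.4% of all genes of at least 1 CPM. Amy2b stood at 10332, 9264, 6355 and 10332 CPM and Amy2a4 at 2954, 3462, 2226 and 4849 CPM. These genes are low in GC, with a median of 39.5%. With each library's trend on GC content and length taken out, AP3 was lowest in 2 of the 7 and AP1 in 4. In such bulk samples fewer cells of a type and less RNA per cell cannot be told apart. The amylase copies are also nearly identical in sequence.

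Among the remaining granule proteins, Sycn (syncollin, of the granule membrane) had 13455 CPM per kb and Reg1 (a secreted lectin) 10324 CPM per kb. Gp2, the major membrane protein of zymogen granules, stood at 5141, 5142, 6826 and 6355 CPM. Reg3b, a lectin known as pancreatitis-associated protein, stood at 2483, 1770, 2483 and 2052 CPM. Reg2 was highest in AP1 at 6826 CPM and lowest in AP2 at 4058 CPM. Serpini2, a pancreatic serpin with a GC content of 38.3%, stood at 203, 207, 66.9 and 166 CPM. It was the single member of its list more than 2-fold below the other libraries in AP3, as were 2.52% of all genes. All 15 genes of the list were above 5 CPM.

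**Figure D3:**
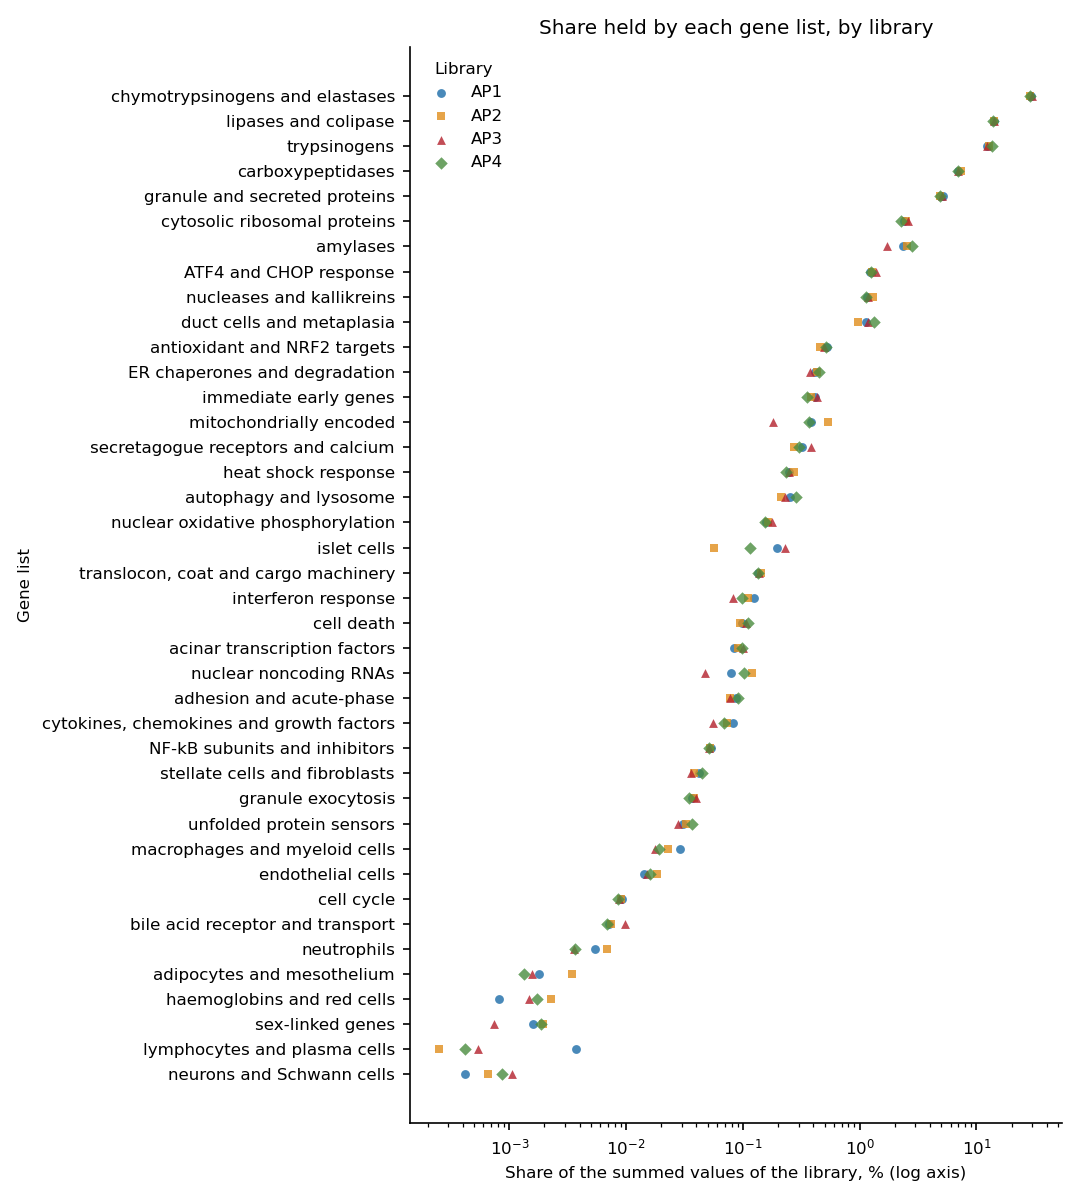
Share of the summed values held by each of the 40 gene lists (log axis), 1 point per library. Most enzyme lists stand at the top with nearly coincident points, which the shared distribution holds close together. Islet genes run from 0.0563% in AP2 to 0.229% in AP3 and lymphocyte genes from 0.000251% in AP2 to 0.00369% in AP1.

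The factors that keep the acinar fate were present in all 4 libraries. Of 16 listed, 14 reached 1 CPM and Mnx1 was at 0 in all 4. Ptf1a stood at 17.4, 18.2, 25.3 and 19.5 CPM, its partner Rbpjl at 71.6, 101, 98.7 and 76.8 CPM, and Bhlha15 (Mist1, which organises the secretory cell) at 75.3, 120, 116 and 68.3 CPM. Bhlha15 and Rbpjl were thus both higher in AP2 and AP3 than in AP1 and AP4. Xbp1, the factor that expands the ER, was the most abundant of the list at 473, 477, 502 and 569 CPM, or 156 CPM per kb. Nr5a2 stood at 12.2, 12.5, 6.35 and 12.9 CPM and Foxa2 at 7.24, 3.36, 11.6 and 7.73 CPM. Each of these last genes had 1 low library, AP3 for Nr5a2 and AP2 for Foxa2.

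For the receptor and calcium side of the CCK response, 21 of 24 listed genes reached 1 CPM. Cckar, the receptor through which CCK acts on rodent acinar cells, stood at 42.8, 50.9, 44.2 and 37.7 CPM, with the 4 libraries within 1.35 times of each other. Cckbr, the gastrin receptor, was at 0.415, 0.494, 0.128 and 0.219 CPM, close to the level that a listing of 0 allows. The muscarinic receptor Chrm3 stood at 13.0 ± 1.87 CPM (SD, n = 4). Rcan1, a calcineurin inhibitor that is itself a target of the calcium-driven factor NFAT, was far above the rest of its list at 910 ± 152 CPM per kb, rank 46. Its values were 2790, 2362, 3462 and 2614 CPM, highest in AP3. With the GC and length trend removed AP1 and AP3 were close, at 2955 and 2914 CPM. The libraries were not scaled again after that step, so which was highest is not settled. The calcium pump Atp2a2 had 20.1 CPM per kb and stood at 135, 117, 101 and 136 CPM.

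Genes of protein entry into the ER and of transport coats had a lower median spread than all genes, and those of granule exocytosis a higher one. Spread also fell with level, and the median level was 33.9 CPM in the first list and 7.56 CPM in the exocytosis list. All genes of 10 to 50 CPM had a median SD of 0.221 and those of 5 to 10 CPM 0.275, so part of the contrast goes with level. All 26 listed genes of the translocon, signal peptidase and transport coats were above 5 CPM, with a median SD of 0.137 against 0.259 over all genes of at least 1 CPM. Sec61a1, the channel subunit, stood at 140, 178, 175 and 168 CPM. In 3 of the 26 the highest library was over 2 times the lowest, near the 14.4% seen over all genes of at least 5 CPM. Sec62 spread most, at 27.3, 36.4, 11.6 and 17.3 CPM, low in AP3 and AP4, and the others were Sec63 and Tmed11. Of the exocytosis genes, 14 of 15 reached 1 CPM, led by Rab3d, a granule GTPase, at 150, 162, 193 and 121 CPM. Their median SD was 0.304. Snap23, a fusion protein of granule release, stood at 9.73, 9.51, 3.80 and 9.80 CPM, so that AP3 alone was low.

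All 30 ER chaperone and degradation genes were above 5 CPM. Their promoters are shown because the ER stress element, read by ATF6 with NF-Y, is the shared sequence through which the unfolded protein response acts on such genes. The letters searched were CCAAT and CCACG with 9 free bases between them, on both strands of the same RefSeq windows. It was present in 9 of the 23 members with a listed promoter (39.1%) and in 0.137% of all 27025 genes. The members were Hspa5, Hsp90b1, Calr, Canx, Pdia6, Dnajc3, Creld2, Syvn1 and Derl3. Genes of this list were chosen by their known role, and other motif spellings were also looked at. The motif shares here, and those of the other lists, are therefore descriptions and not tests. The 6 windows below have the element in capitals, in the gene's direction, as spelled or as its reverse complement.
Hspa5, chr2:34772005-34772063: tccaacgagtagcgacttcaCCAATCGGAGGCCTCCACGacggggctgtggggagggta
Hsp90b1, chr10:86705618-86705676: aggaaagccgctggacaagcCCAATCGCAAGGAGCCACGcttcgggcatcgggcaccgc
Canx, chr11:50325780-50325838: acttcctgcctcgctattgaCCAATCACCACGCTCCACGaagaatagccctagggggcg
Dnajc3, chr14:118937807-118937865: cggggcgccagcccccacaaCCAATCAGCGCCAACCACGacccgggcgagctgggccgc
Syvn1, chr19:6046512-6046570: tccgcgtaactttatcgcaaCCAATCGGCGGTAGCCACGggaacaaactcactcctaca
Derl3, chr10:75893222-75893280: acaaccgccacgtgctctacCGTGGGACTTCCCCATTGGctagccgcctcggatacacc

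Hspa5 (BiP, the main ER chaperone) stood at 925, 952, 513 and 1117 CPM, and the value in AP3 was well under the others. Hsp90b1 (GRP94) stood at 31.5, 37.0, 10.2 and 36.0 CPM, Canx at 49.4, 48.8, 24.8 and 45.2 CPM, and Dnajc3 at 79.4, 83.0, 37.5 and 72.2 CPM. AP3 was the low library in each of these 4 of the 9 carriers of the element. Syvn1 and Derl3, of the degradation branch, did not share this in their listed values, at 58.4, 61.4, 62.3 and 72.2 CPM and at 35.6, 31.3, 41.2 and 31.4 CPM. With the GC and length trend removed AP3 was lowest for Syvn1, at 53.1 CPM against 61.6 to 73.0 CPM, but not for Derl3. Among the remaining carriers, AP3 was then lowest for Pdia6, at 85.7 CPM against 98.5 to 111 CPM. For Creld2, AP3 at 22.3 and AP2 at 22.4 CPM were too close to order. AP3 was not lowest for Calr. AP3 was lowest in 13 of the 30 genes, and in 16 of 30 after the GC and length trend was taken out, where 30.4% of all genes had AP3 lowest before that step. Hsp90b1 has a GC content of 42.1%, and with the trend removed it stood at 12.1 CPM in AP3 against 28.6 to 33.8 in the others. Genes not among the listed carriers were low in AP3 too. With the trend removed Hyou1 stood at 20.4 CPM there against 40.9 to 48.8, and Pdia3 at 19.9 against 30.4 to 36.6. AP3 was then the highest library in 5 of the 30 genes. A link between the element and the values in AP3 was not tested.

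Of the 30 ER genes, 5 had a highest library over 2 times the lowest, near the 14.4% seen over all genes of at least 5 CPM. Besides Hspa5, Hsp90b1 and Dnajc3 these were Hyou1 at 41.3, 46.6, 21.9 and 42.1 CPM, lowest in AP3, and Pdia4 at 6.12, 3.07, 6.64 and 5.76 CPM, lowest in AP2. P4hb, the disulfide isomerase, was close to even and stood at 1075, 1019, 1117 and 1018 CPM, or 370 ± 16.8 CPM per kb (SD, n = 4). Herpud1, of ER-associated degradation, stood at 607, 774, 726 and 904 CPM and was highest in AP4. The list had a median SD of 0.187, and of 0.116 without AP3. The stress sensors were lower per length, with Eif2ak3 (PERK) at 18.1, Ern1 (IRE1) at 10.1 and Atf6 at 4.74 CPM per kb. Eif2ak3 was highest in AP4, at 144 CPM against 90.8 to 107 CPM. Ern2, an IRE1 relative of gut epithelium, was at 0 in all 4 libraries.

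The amino acid and PERK response run by ATF4 and CHOP was the most abundant of the stress lists, at 1.28% ± 0.0606 (SD, n = 4) of the sum, with all 30 genes above 5 CPM. Its promoters are shown for the ATF4 composite site. TGATGNAAN was present on either strand in 8 of the 26 members with a listed promoter (30.8%) and in 4.50% of all 27025 genes. They were Atf3, Trib3, Chac1, Asns, Slc7a11, Vldlr, Fgf21 and Nupr1. The windows of 5 of them follow, with the site in capitals.
Nupr1, chr7:126625553-126625601: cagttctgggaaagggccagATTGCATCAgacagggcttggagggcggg
Chac1, chr2:119351028-119351076: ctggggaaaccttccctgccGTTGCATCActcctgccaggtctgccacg
Atf3, chr1:191183416-191183464: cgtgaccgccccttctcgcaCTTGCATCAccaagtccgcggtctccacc
Asns, chr6:7693210-7693252: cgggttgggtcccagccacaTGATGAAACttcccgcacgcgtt
Fgf21, chr7:45615602-45615650: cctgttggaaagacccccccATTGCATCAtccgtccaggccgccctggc

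Nupr1, a small chromatin protein known as a marker of pancreatic stress, was the highest of the list at 4637, 4849, 4329 and 5141 CPM, rank 32 at 1885 CPM per kb. Chac1, which breaks down glutathione, followed at 2362, 2614, 3190 and 1901 CPM, rank 39. The Chac1 libraries spread 1.68 times, with AP3 highest and AP4 lowest. After removal of the trend AP4 was still lowest, at 1991 CPM, and the others lay between 2578 and 2646 CPM. The order of those others is not settled, because the libraries were not scaled again after that step. Atf4 itself stood at 481, 469, 509 and 457 CPM and Atf3 at 588, 550, 634 and 509 CPM. Asns (asparagine synthetase) stood at 553, 524, 569 and 528 CPM, among the tightest of the list. Ddit3, the gene of CHOP, stood at 13.0, 16.5, 16.4 and 19.2 CPM and had no length in the annotation used.

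Transporters and serine synthesis genes of the same list were also high. Slc3a2, the heavy chain of amino acid exchangers, had 183 CPM per kb, and Phgdh, the first enzyme of serine synthesis, had 213. Trib3, an inhibitor of the AKT kinase that CHOP turns on, stood at 173, 193, 242 and 228 CPM. The hormone Fgf21 stood at 35.6, 39.0, 54.1 and 27.8 CPM. Vldlr stood at 26.8, 30.5, 12.6 and 26.1 CPM, with AP3 low. AP3 was highest in 18 of the 30 genes, where AP3 was highest in 39.8% of all genes. With the GC and length trend removed AP3 was highest in 9 and lowest in 11 of the 30. The list's median SD was 0.211, and 0.103 without AP3.

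Immediate early genes, which answer signals within minutes to hours, were present at 6 h. Of 36 listed, 33 reached 1 CPM and held 0.396% ± 0.036 (SD, n = 4) of the sum. Junb led per length at 295 CPM per kb and stood at 685, 602, 868 and 561 CPM. Btg2, an antiproliferative gene, stood at 799, 753, 742 and 634 CPM, and Egr1 at 267, 263, 409 and 227 CPM. AP3 was the highest library for Junb and Egr1, and AP4 the lowest. With the trend removed AP3 was still highest for Egr1, at 347 CPM. For Junb AP1 then stood at 752 and AP3 at 692 CPM. The libraries were not scaled again, so the order of AP1 and AP3 for Junb is not settled. Fos, by contrast, had 10.5 CPM per kb, at 20.2, 26.8, 34.7 and 17.1 CPM. Klf6 stood at 423, 335, 169 and 327 CPM, low in AP3. AP4 was lowest in 16 of the 33 genes, where AP4 was lowest in 21.9% of all genes. The cyclic AMP response element TGACGTCA, which reads the same on both strands, was in the windows of 3 of the 26 members with one (11.5%, namely Btg2, Dusp1 and Maff) and in 2.03% of all genes.

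The heat shock list was led by a constitutive chaperone and the antioxidant list by a metallothionein, a class known to be induced by metals and stress. Hspa8, the constitutive HSP70, stood at 1204, 1329, 1228 and 1075 CPM, while the inducible copies Hspa1a and Hspa1b, which share most of their sequence, stood at 28.4 to 53.4 and 49.6 to 77.0 CPM. Hsp90aa1 stood at 111, 144, 34.0 and 95.3 CPM, 4.25 times from lowest to highest, and AP3 was the low library. Mt1, a metal-binding metallothionein, had 2771 CPM per kb at rank 27, and its values of 3462, 3191, 3695 and 3462 CPM were close together. Gclc, the limiting enzyme of glutathione synthesis, stood at 952, 607, 469 and 880 CPM. Gclc was high in AP1 and AP4 and lower in AP2 and AP3. The heat shock element, searched as GAA, TTC and GAA with 2 free bases between each on both strands, was in 4 of 14 listed promoters (28.6%, namely Hsph1, Hspd1, Hspe1 and Chordc1) and in 0.662% of all. Hspd1 and Hspe1 lie head to head and share it.

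The NF-kB genes were the tightest of the inflammation lists in their share, 0.0521% ± 0.00111 (SD, n = 4). Of 18 genes, 17 reached 1 CPM. Rela weighs most in that share, with a mean of 254 CPM. Per gene the median SD was 0.226, against 0.253 in the adhesion and acute-phase list. In 3 of the 14 genes of at least 5 CPM the highest library was over 2 times the lowest (14.4% of all such genes). Rela, the activating subunit, stood at 246, 247, 267 and 257 CPM. Nfkbia, the inhibitor that NF-kB itself switches on, stood at 41.3, 37.4, 29.5 and 27.7 CPM, higher in AP1 and AP2 than in AP3 and AP4. Nfkbiz stood at 30.7, 24.1, 12.2 and 20.5 CPM and Tnfaip3 at 25.1, 18.3, 10.8 and 17.3 CPM, AP3 being lowest for both.

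Promoters with an NF-kB site, searched on both strands as GGG and TTTCC with 2 free bases between them, are shown for genes of this response. It was present in 4 of 13 NF-kB genes with a window (30.8%), in 5 of 18 cytokine genes (27.8%) and in 1.89% of all 27025 genes.
Nfkbia, chr12:55492648-55492696: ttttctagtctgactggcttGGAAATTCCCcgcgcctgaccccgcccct
Il6, chr5:30013050-30013099: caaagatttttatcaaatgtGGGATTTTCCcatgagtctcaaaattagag
Cxcl1, chr5:90891154-90891203: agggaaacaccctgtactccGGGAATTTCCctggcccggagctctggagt
Cxcl2, chr5:90903782-90903831: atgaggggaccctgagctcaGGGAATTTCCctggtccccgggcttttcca

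Cytokine transcripts were of middle to low level. Of 34 listed, 27 reached 1 CPM, 21 reached 5 CPM, and Ccl20 was at 0 in all 4 libraries. Cxcl10, a T cell attractant, led the chemokines at 123, 157, 65.4 and 123 CPM, or 52.0 CPM per kb. Vegfa stood at 160, 135, 121 and 130 CPM and Lif at 125, 56.3, 87.3 and 114 CPM, lowest in AP2. Ccl2, which draws monocytes, stood at 45.9, 60.4, 30.3 and 37.1 CPM. Il6 stood at 4.60, 8.65, 1.95 and 5.27 CPM and Tnf at 3.82, 3.19, 1.78 and 1.94 CPM.

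For cytokines as a group, AP3 was the lowest library in 17 of 27 genes and AP1 the highest in 12, where the shares over all genes were 30.4% and 20.2%. After removal of the GC and length trend, AP3 was lowest in 19 of the 27. Il1b, a product of myeloid cells, stood at 26.5, 16.2, 6.43 and 12.9 CPM. AP1 was the highest and AP3 the lowest library there. The listed myeloid markers had the same highest and lowest library, at 0.0290%, 0.0228%, 0.0177% and 0.0190% of the sum, and their part in the Il1b values was not tested.

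Acute-phase and adhesion genes held 0.0838% ± 0.00673 (SD, n = 4), with 19 of 23 genes of at least 1 CPM. Tnfrsf12a, the TWEAK receptor, stood at 151, 145, 197 and 195 CPM. Socs3, which limits STAT3 signalling, stood at 106, 90.2, 130 and 88.5 CPM and Stat3 at 105, 87.4, 91.8 and 123 CPM. The secreted proteins Lcn2 and Saa3 stood at 92.3, 105, 74.5 and 95.9 CPM and at 62.5, 61.5, 46.9 and 70.9 CPM, and AP3 was the lowest library for both. Ptgs2, the inducible prostaglandin synthase, was near 2 CPM in 3 libraries and at 0.421 in AP3.

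Interferon-stimulated genes were present although the gene of interferon beta, Ifnb1, was at 0 in all 4 libraries. Of 18 listed, 16 were above 5 CPM. Rsad2 (viperin) led at 569, 409, 221 and 349 CPM, high in AP1 and low in AP3. Ifit2 stood at 24.1, 32.4, 5.73 and 24.2 CPM. Isg15 was even at 33.6, 37.6, 32.7 and 34.0 CPM, and so was Irf7 in 3 libraries at 95.9, 91.5 and 91.4 CPM with 74.0 in AP4. AP3 was lowest in 9 of the 16 genes (30.4% of all genes). The interferon-stimulated response element, searched as GGAAA and GAAA with 2 free bases between them, was found on either strand in 5 of the 12 genes with a window (41.7%) and in 1.33% of all 27025. Windows of 2 of these genes, the even Isg15 and the less even Ifit1, are shown.
Isg15, chr4:156200861-156200911: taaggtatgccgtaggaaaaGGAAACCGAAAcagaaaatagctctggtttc
Ifit1, chr19:34640765-34640815: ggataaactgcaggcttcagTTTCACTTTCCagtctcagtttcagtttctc

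Ifit1, which carries the element, stood at 20.6, 26.0, 7.58 and 14.985 CPM. AP3 was its low library.

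The cell death list was led by an inhibitor of the cell cycle and by survival genes. Cdkn1a, the p21 cell cycle inhibitor, had 103 CPM per kb at 345, 343, 402 and 370 CPM. Mcl1 and Bcl2l1, which block mitochondrial apoptosis, had 92.2 and 46.0 CPM per kb. Bbc3 (PUMA, which promotes apoptosis) stood at 10.8, 16.3, 26.9 and 28.0 CPM, lower in AP1 and AP2 than in AP3 and AP4. Of 28 listed genes, 25 reached 1 CPM and 11 reached 5 CPM.

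All 22 autophagy and lysosome genes reached 1 CPM. Sqstm1 (p62, an autophagy receptor) stood at 764, 553, 677 and 1049 CPM, with AP4 highest and AP2 lowest. Ctsb, the lysosomal protease known to activate trypsinogen, stood at 302, 192, 275 and 307 CPM, and Ctsl, which degrades trypsinogen, at 550, 439, 423 and 685 CPM. AP2 was the lowest library for Ctsb and AP3 for Ctsl, though AP2 and AP3 were close for the latter. Lamp2, a lysosomal membrane protein, stood at 55.1, 37.7, 20.8 and 42.7 CPM, low in AP3. Per length, Sqstm1 had 227, Ctsl 80.8 and Ctsb 44.4 CPM per kb.

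The bile acid receptor that OCA addresses, and its targets, were low. Of 14 listed genes, 4 reached 1 CPM, and Slc51b, Slc10a1, Fgf15 and Cyp7a1 were at 0 in all 4 libraries. Nr1h4, the gene of the receptor FXR, stood at 0.546, 1.99, 0.925 and 0.219 CPM, and in AP4 it was at a count of 3. Nr0b2, an FXR target, stood at 3.06, 4.04, 6.90 and 4.88 CPM. The partner receptors Rxra and Rxrb stood at 31.6, 27.2, 39.8 and 26.9 CPM and at 32.1, 38.8, 45.6 and 33.2 CPM, both highest in AP3. With the trend removed and no new scaling, Rxrb stood at 40.4 CPM in AP2 and 36.9 CPM in AP3, so its highest library is not settled. AP2 was the highest library for Nr1h4, and the other 3 lay below 1 CPM, where counting error is large.

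Genes of the cell's basal machinery differed in how far libraries spread. The 78 cytosolic ribosomal protein genes of at least 1 CPM had a median SD of 0.152, with AP3 highest in 43 (39.8% of all genes) and AP4 lowest in 44 (21.9% of all genes). With the GC and length trend removed AP3 was highest in 22 and lowest in 32 of the 78, and AP4 was lowest in 27. AP4 was highest in 2 of them, and in 19.8% of all genes. The 40 nuclear genes of oxidative phosphorylation, all above 5 CPM, had a median SD of 0.168, and none had a highest library over 2 times the lowest, a spread seen in 992 (14.4%) of the 6873 genes of at least 5 CPM. Atp5a1, an ATP synthase subunit, was almost level at 212, 211, 214 and 212 CPM. Genes on the mitochondrial genome differed from this, with a median SD of 0.841, and of 0.423 without AP3.

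The 12 mitochondrially encoded genes of at least 1 CPM were all highest in AP2, where AP2 was highest in 20.1% of all genes. AP3 was lowest in 9 of them, and in 30.4% of all genes. The summed share of the mitochondrially encoded list was 0.382%, 0.533%, 0.180% and 0.371%. mt-Cytb stood at 742, 1049, 207 and 799 CPM and mt-Nd4 at 265, 402, 55.4 and 220 CPM. AP3 was more than 2-fold under the other libraries in 6 of the 12, against 2.52% of all genes. These genes have a median GC content of 36.5%, and with the GC and length trend removed AP3 was still lowest in 9 and AP2 highest in 11. Levels within the list were uneven, mt-Co1 at 1021 and mt-Co2 at 6.51 CPM per kb, and the reason for this was not tested.

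Acinar identity of the label was checked on 9 markers, all of which were present. Cpa1, Prss2, Ctrb1, Cela1 and Pnlip stood among the 8 highest genes per kb, Amy2a5 had 563 CPM per kb, and Ptf1a, Rbpjl and Bhlha15 had 13.3, 15.2 and 27.2 CPM per kb. Genes listed as markers of other cells were looked at next. The most abundant of these were keratins, which are not particular to other cells.

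Of 22 duct and metaplasia markers, 17 reached 1 CPM and Cldn18 was at 0 in all 4 libraries. The list held 1.15% ± 0.145 (SD, n = 4), most of it from Krt8, Krt18 and Clu. These do not tell duct cells from acinar cells, since injured acinar cells are also known to express them. Krt8 stood at 6355, 5521, 7061 and 8179 CPM and Krt18 at 2614, 2226, 2614 and 2954 CPM, with AP4 highest and AP2 lowest for both. Krt19, a duct keratin, stood at 133, 83.5, 125 and 144 CPM, and Sox9, a duct factor, at 14.5, 8.38, 13.2 and 14.9 CPM, again lowest in AP2. Cftr, the chloride channel that defines duct cells, was at 0.270, 0.632, 0.313 and 0.663 CPM. Cldn4, a tight junction protein, stood at 51.4, 31.4, 26.2 and 83.3 CPM, highest in AP4.

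Islet transcripts were clear in all libraries and differed 4.06 times in their summed share, at 0.196%, 0.0563%, 0.229% and 0.116%. Ins2 stood at 1097, 296, 1329 and 707 CPM, and at 653 CPM per kb it ranked 53. Ins1 stood at 360, 86.7, 493 and 180 CPM, Gcg (glucagon, of alpha cells) at 176, 71.4, 134 and 77.4 CPM, and Sst (somatostatin, of delta cells) at 17.3, 5.94, 21.1 and 8.28 CPM. Genes of several hormone cell types thus had AP2 as their low library. AP2 was lowest in 19 of the 20 islet genes of at least 1 CPM, where it was lowest in 22.6% of all genes. AP3 was highest in 12 and AP1 in 8, or in 9 and 10 with the GC and length trend removed. Over all genes these shares were 39.8% and 20.2% before that step. In AP2, 5 of the 20 were more than 2-fold below the other 3 libraries, against 0.167% of all genes. Removal of the GC and length trend left AP2 lowest in 19, and the list's median SD was 0.653 with AP3 and 0.650 without it.

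**Figure D4:**
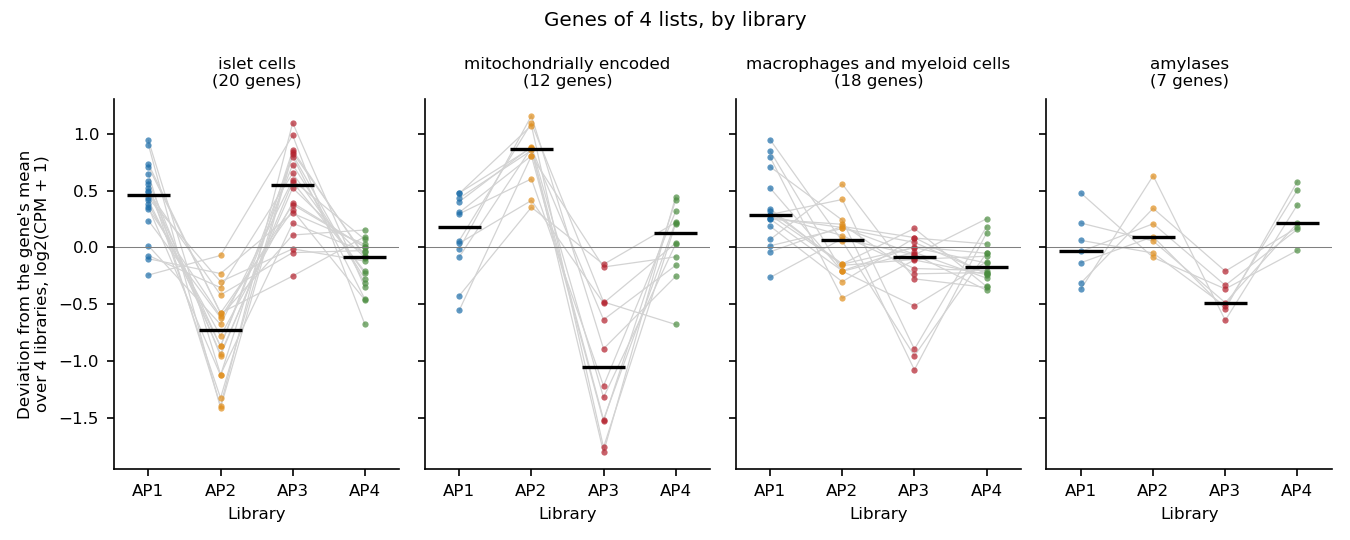
Deviation of each gene from its own mean over the 4 libraries, in log2(CPM + 1), for genes of at least 1 CPM in 4 lists. Grey lines join the values of 1 gene and black bars are medians. Islet genes are low in AP2, mitochondrially encoded genes are high in AP2 and low in AP3, most myeloid genes are highest in AP1, and amylases are low in AP3.

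Vessel and connective tissue cells left smaller traces. The endothelial list held 0.0159% ± 0.00173 (SD, n = 4), with 15 of 17 genes of at least 1 CPM. AP2 was highest in 7 of those 15, against 20.1% of all genes. Plvap, of fenestrated vessels, stood at 38.8, 51.3, 40.5 and 37.8 CPM and Cdh5 at 12.4, 21.9, 15.3 and 17.9 CPM. The stellate and fibroblast list held 0.0404% ± 0.00403, with 19 of 20 genes of at least 1 CPM. Col3a1, a fibrillar collagen, stood at 77.4, 74.2, 68.2 and 108 CPM, highest in AP4, and Dcn, a matrix proteoglycan, at 43.4, 36.1, 17.1 and 37.2 CPM. Vim stood at 39.8, 14.1, 16.4 and 18.6 CPM, so that AP1 alone was high.

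Leukocyte markers were low and tended to be highest in AP1 or AP2. The myeloid list held 0.0221% ± 0.00507 (SD, n = 4). AP1 was the highest library in 13 of its 18 genes of at least 1 CPM, against 20.2% of all such genes. Lyz2 stood at 71.2, 37.9, 18.3 and 35.2 CPM, Cd14 at 61.4, 59.5, 43.7 and 44.1 CPM, and Ptprc, the pan-leukocyte gene of CD45, at 5.65, 3.80, 0.925 and 3.44 CPM. For neutrophils, S100a9 stood at 18.2, 24.2, 12.4 and 9.41 CPM. Of the 7 neutrophil genes of at least 1 CPM, 5 were highest in AP2, against 20.1% of all such genes. The granule genes Mpo and Elane were at 0 in all 4 libraries.

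Lymphocyte and plasma cell genes were nearly absent, with 3 of 18 of at least 1 CPM and Cd3e and Cd3g at 0 in all 4. Ighm, an immunoglobulin heavy chain, stood at 24.8, 0.926, 1.42 and 1.84 CPM, and Igkc, a light chain, at 6.21, 1.01, 0.818 and 0.0120 CPM. AP1 alone was high for both. Jchain, of plasma cells, was at 1.20 CPM in AP1 and at 0 in the others.

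Further lists of other cells, and that of the cell cycle, held small shares of the sum. Haemoglobin genes summed to 0.00157% ± 0.000605, with Hbb-bs at 3.46, 9.65, 6.81 and 8.95 CPM, lowest in AP1. Adipocyte and mesothelial markers summed to 0.00204% ± 0.000971, of which Fabp4, also known from vessel cells, stood at 11.2, 27.8, 12.9 and 11.9 CPM. Neuronal and Schwann cell markers had 1 gene of 9 above 1 CPM, Tubb3, while Sox10 was at 0. Cell cycle genes reached 1 CPM in 10 of 27, led by Ccnd2 at 36.1, 40.4, 29.7 and 35.7 CPM, whereas Mki67 and Top2a, which mark dividing cells, stayed under 1 CPM in all 4 libraries. Xist was at 0 in all libraries and the Y-linked Ddx3y stood at 7.66, 8.78, 2.89 and 7.24 CPM.

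The spread between replicates set how finely levels can be told apart. The median SD of log2(CPM + 1) was 0.259 over the 10798 genes and 0.190 without AP3. It was 0.318 for genes of 1 to 2 CPM, 0.312 for 2 to 5, 0.275 for 5 to 10, 0.221 for 10 to 50, 0.181 for 50 to 500 and 0.193 above 500. Among the 6873 genes of at least 5 CPM, 3711 (54.0%) kept all 4 libraries within 1.5 times. The ATF4 and ER chaperone lists lost much of their spread without AP3, while the islet, neutrophil and trypsinogen lists did not.

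**Figure D5:**
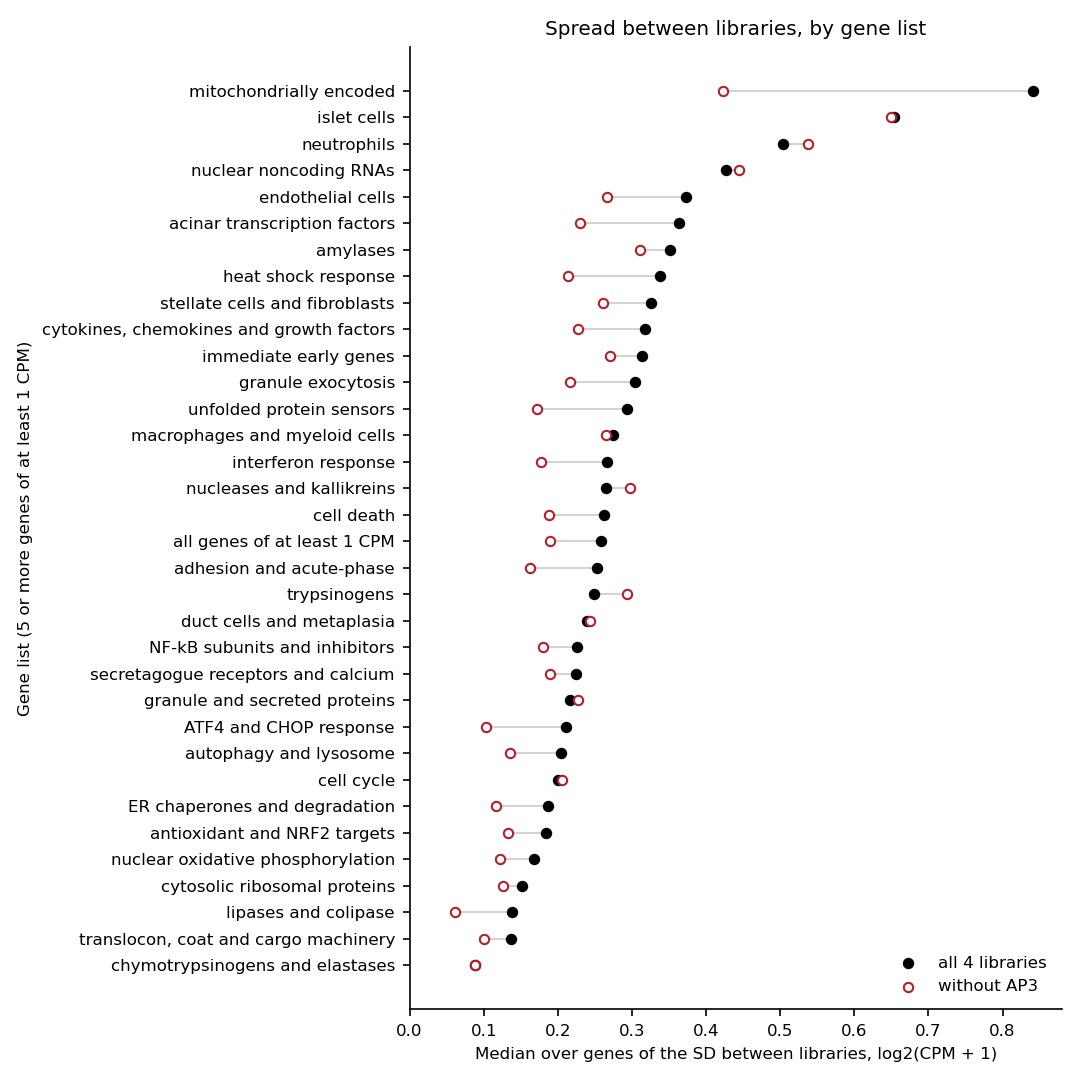
Median over genes of the SD between libraries, in log2(CPM + 1), for each list with 5 or more genes of at least 1 CPM. Black points use all 4 libraries and open red points leave out AP3. Mitochondrially encoded genes stand at 0.841 and 0.423, islet genes at 0.653 and 0.650, and all genes of at least 1 CPM at 0.259 and 0.190.

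Genes with the widest and the narrowest spread were of different kinds. Of the genes of at least 5 CPM, pseudogenes, predicted genes and Riken clones left aside, Ighm had the largest SD, at 1.74. The myeloid genes Slfn4, Chil3 and F13a1 stood at 55.1, 47.5, 8.21 and 23.1 CPM, at 16.1, 6.55, 1.78 and 11.6 CPM and at 19.2, 6.08, 2.07 and 10.3 CPM. AP1 was highest and AP3 lowest in all 3. Prpf4b, a splicing kinase, stood at 6.72, 10.1, 0.725 and 6.63 CPM and Samd9l, an interferon-responsive gene, at 12.3, 18.1, 2.34 and 11.9 CPM, both with AP3 low. At the narrow end, besides Ctrb1, stood Atp5a1, Tor1b at 24.3, 24.7, 24.4 and 24.5 CPM, Rps27l at 57.9, 57.7, 57.9 and 58.7 CPM, and Magi1 at 7.74, 7.54, 7.49 and 7.49 CPM.

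Single libraries also carried single genes. In AP3, Nr1d1, a repressor of the circadian clock, stood at 45.8 CPM against 8.78 to 14.5 CPM in the others. In AP4, Slc26a9, an anion transporter, stood at 14.1 CPM against 1.65 to 3.96 CPM, and Lars2, a mitochondrial leucyl-tRNA synthetase, at 409 CPM against 119 to 196 CPM. AP2 was low in Syt13, a vesicle protein of endocrine cells, at 0.494 CPM against 3.44 to 4.87 CPM, and in Insm1, an endocrine factor, at 0.926 CPM against 3.54 to 7.96 CPM. These AP2 genes, together with Ins2, are known from islets. In AP1, Rps27rt stood at 50.6 CPM against 16.6 to 22.5 CPM while its near copy Rps27 stood at 19.2 CPM against 39.7 to 66.2 CPM, and the division of reads between them is uncertain.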

How the data were processed

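The 4 AP libraries were prepared with a SMARTER kit starting from total RNA and sequenced, per the labels' protocols. The authors deposited 1 table of log2 values per gene; the mm10 build comes from the submitters' processing notes, and the aligner, the counting tool and the gene annotation are not given in the sources used here. In the deposited log2 values all 4 libraries reach the same maximum of 20.57, and their sums after undoing the log hardly differ, as quantile normalisation gives, and the lowest, -6.64, is the log2 of 0.01.

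The log2 was undone, 0.01 taken off and each library scaled to 1000000 (CPM, Python 3.11.15, pandas 2.3.3). Spread is the SD of log2(CPM + 1) over the 4 libraries, for genes of at least 1 CPM. With 1 group, no test was made. The functions were tested on simulated data. Lengths, GC content and positions came from GENCODE vM21, matched by symbol for 53717 of 54427 genes; genes under 200 bases were not ranked. Symbols in the form of dates (24) were not repaired. A count of 3 was taken as the floor of detection. Depth is known only from the steps among low values, which put 1 CPM at the step of 14, 12, 9 and 13 counts in AP1 to AP4.

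Members and the 40 gene lists were chosen with earlier results of these data known. Named genes are the 15 highest per kb, in each list the 3 most abundant and the most variable of at least 5 CPM, the 10 most and 5 least variable genes, up to 5 genes farthest above and below the others in each library, Cckar, and defining markers. Others were named for their role after their values were seen. Promoters are RefSeq windows of GRCm38.p6. Other motif spellings were also looked at and are not printed. Alternatives were other scalings, pseudocounts of 0.1 and 5, other filters, transcript length, each library left out and, added after seeing the data, removal of each library's trend on GC content and length in binned medians. Values of some genes within the naming rule are not reported here.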

Additional observations from a re-analysis of the deposited data

Results flagged for a closer look

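In each case below 1 of the 4 libraries lay apart, its gap to the nearest other library, as a part of the range over the 4, being above Dixon's critical value. This was so for 2 of 40 list shares and 22 of 211 named genes, and chance alone gives it in about 1 in 20 groups. Many of the genes had been named because a single library stood out, so their number says nothing more.

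AP1 was the high library for the lymphocyte and plasma cell share, at 0.00369% against 0.000251% to 0.000544%. The genes behind it were Ighm at 24.8 CPM and Igkc at 6.21 CPM. Cxcl13, a chemokine that attracts B cells, stood at 3.87 CPM in AP1 against 0.0272 to 0.219 CPM, and Ly6c2, of monocytes, at 26.0 CPM against 9.80 to 12.2 CPM. Tbx6 was low in AP1, at 1.34 CPM against 3.80 to 4.15 CPM. The trypsinogen gene 2210010C04Rik at 24656 CPM (others 22943 to 22944) and Clu at 1901 CPM (others 1696) were also apart in AP1, where the other 3 libraries hold the same rank and therefore the same value in the shared distribution.

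AP2 was the high library for the carboxypeptidase share, at 7.43% against 6.92% to 7.0025%. It was high for the ribonuclease Rnase1 at 5962 CPM (others 4058 to 4329), the kallikrein Klk1b5 at 123 CPM (others 91.1 to 95.7), the fatty acid carrier Fabp4 at 27.8 CPM (others 11.2 to 12.9), Spice1 at 3.45 CPM (others 1.02 to 1.36) and Ctla2a at 2.996 CPM (others 0.494 to 0.732).

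AP3 was the high library for Nr1d1 at 45.8 CPM, the clock gene Ciart at 3.25 CPM (others 1.52 to 1.64), the ribosomal gene Rplp0 at 1534 CPM (others 1097 to 1166), Nptx2 at 9.81 CPM (others 3.18 to 3.36) and the potassium channel gene Kcnj11 of beta cells at 4.46 CPM (others 0.225 to 0.811). It was the low library for Pnlip at 60141 CPM (others 69034 to 69037), Snap23 at 3.80 CPM (others 9.51 to 9.80) and Son at 16.3 CPM (others 62.3 to 71.7). For Pnlip the other libraries hold the same rank and therefore the same value in the shared distribution. AP4 was low for Cela3a at 2.00 CPM (others 6.27 to 6.79) and high for the keratin Krt20 at 13.9 CPM (others 5.73 to 6.79).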

How the results depend on the processing

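No paired analysis was possible because the 4 libraries form a single group and no comparison between groups was made. Median centring, no rescaling, renewed quantile normalisation and a scaling without the digestive genes left the main results close to the reported values. These were the number of genes of at least 1 CPM, the digestive share, the median SD and the count of genes apart in AP3. The deposited libraries already shared a distribution, so all but the last of these scalings could change little. With the longest transcript in place of merged exons, the 20 highest genes per kb were still all digestive. All 251 list shares and gene means stayed within 1 SD under those 4 scalings and under each library left out. For a library left out this was fixed in advance, since dropping 1 of 4 values cannot move a mean by 1 SD. A minimum of 5 CPM kept 6873 genes. The number of genes in which AP3 stood apart, 289 in both directions, became 609 with a pseudocount of 0.1 and 58 with 5, and the median SD became 0.165 with 5. It became 79 after removal of the GC and length trend, which also took the digestive share to 70.5%, since the libraries then no longer sum to 1000000. Leaving out each library in turn, the count for the library farthest apart ran from 40 without AP3, when it was AP2, to 434 without AP4, each set against the remaining libraries. The depth of each library limits genes near 1 CPM, which rest on about 9 to 14 counts.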

Other observations

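Some abundant transcripts outside the lists are given here as values, chosen after their values were seen. Actg1 and Actb, the cytoskeletal actins, stood at 4849, 4329, 5521 and 3695 CPM and at 3190, 2954, 2954 and 2226 CPM, ranks 36 and 43 per kb, AP4 being lowest for both. Ndrg1, a gene known to respond to low oxygen, stood at 1049, 615, 925 and 1204 CPM, lowest in AP2. Txnip, which binds thioredoxin and answers to glucose, was even at 868, 904, 952 and 868 CPM, rank 82. Pdk4, which switches off pyruvate oxidation in fasting, stood at 13.6, 36.4, 19.6 and 16.8 CPM. AP2 was its highest library.

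Clock genes differed in whether AP3 was their high library, as it was for Nr1d1. Ciart and Dbp, both of low level, were highest in AP3, at 1.62, 1.52, 3.25 and 1.64 CPM and at 0.546, 0.926, 1.70 and 0.811 CPM. The Nr1d1 relative Nr1d2 stood at 16.3, 17.4, 9.40 and 18.5 CPM, lowest in AP3, and Arntl, the activator of the clock, was even at 6.12, 5.63, 5.07 and 6.72 CPM. Per1 stood at 27.3, 32.1, 40.8 and 44.0 CPM.

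Further myeloid genes outside the lists stood highest in AP1. Cybb, of the oxidase of phagocytes, stood at 12.3, 5.47, 1.31 and 8.64 CPM, Itgb2, an integrin of leukocytes, at 13.1, 4.87, 3.07 and 6.09 CPM, and Ccr2, of monocytes, at 5.14, 2.07, 0.631 and 2.69 CPM. AP3 was the lowest library for these 3 genes. Abcc8, the sulfonylurea receptor of beta cells, stood at 7.82, 2.62, 8.57 and 5.08 CPM, lowest in AP2 like the listed islet genes.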
